A study of Arabidopsis thaliana with 36 samples.

Results

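The histone genes of Arabidopsis thaliana were followed as 39 loci of the 32548 in the deposited expression tables. They are 8 genes for H4, 5 for H3.1, 3 for H3.3, 4 for the major form of H2A, 3 for H2A.W, 3 for H2A.Z, 2 for H2A.X, 8 for H2B, 2 for the main linker histone H1 and 1, HIS1-3, for the stress linker histone. The loci were taken by gene family and class. Transcripts were measured by RNA sequencing in 11 mutants of subunits of SWI/SNF chromatin remodelling complexes and in wild type, with 3 libraries for each genotype. The mutants were brm-/- (called brm), brd1-/-brd2-/-brd13-/- (brd1213), brip1-/-brip2-/- (brip12), syd-/- (syd), swi3d-/- (swi3d), sys1-/-sys2-/-sys3-/- (sys123), minu1-/-minu2-/- (minu12), pms2a-/-pms2b-/- (pms2ab), swp73b-/- (swp73b), bcl7a-/-bcl7b-/- (bcl7ab) and an3-/- (an3), and all were set against wild type. From knowledge of the study, brm, brd1213 and brip12 lack subunits of the BAS class of complexes, built on the ATPase BRM. By the same source syd, swi3d and sys123 lack subunits of the SAS class, built on SYD, and minu12 and pms2ab lack subunits of the MAS class, built on MINU1 or MINU2. The other 3 mutants were put in no class. All plants, wild type included, were 12-day-old seedlings grown on MS plates with 16 h light (23 °C) and 8 h dark (22 °C) per day. The sources used here name no alleles and do not say whether the 3 libraries of a genotype came from separate plants, so the p-values measure the spread between these libraries, which may be technical.

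H4, H3.1, H2A and H2B form the core of the nucleosome and are made mostly during S phase, when new DNA is packaged; their 25 genes are called replication-linked here. H3.3, H2A.Z and H2A.X are replacement variants that also enter chromatin outside S phase: H3.3 gathers at transcribed genes, H2A.Z flanks their starts and lies over the bodies of responsive genes, and H2A.X is phosphorylated at DNA breaks. H2A.W marks heterochromatin in plants. Linker histone H1 binds the DNA where it enters and leaves the nucleosome, and HIS1-3 is a short, divergent H1 known to be induced by drought and abscisic acid.

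Library depth was even, at 21070583 to 23761910 reads recovered per library. Levels are given as CPM, the deposited value scaled to counts per 1e6 of the authors' common library size, where 1 CPM is 23.1 reads. The transcripts of the mutated genes were examined as a check of the labels. BRM stood at 1.30, 14.5 and 7.35 CPM in brm libraries, against 123, 129 and 112 CPM in wild type, so the brm libraries differ among themselves in residual BRM reads. BRD13, BRIP2, SWI3D, MINU2, SWP73B, BCL7A and BCL7B were each between 0.149% and 26.3% of wild type in their own mutants, and BRD2, MINU1 and BRIP1 between 46.7% and 64.9%. BRD1 was at 200% of wild type in brd1213. SYD was at 165% of wild type in the libraries labelled syd, and AN3 at 102% in the libraries labelled an3, so transcript level does not check those labels; both are called by their labels below. The SYS and PMS2 genes were not examined here. Green tissue markers were detected in every genotype, with summed means of 23809 CPM (pms2ab) to 44543 CPM (bcl7ab) in mutants and 37602 CPM in wild type, and so were root markers, with 31.2 CPM (brm) to 63.6 CPM (swi3d) in mutants and 50.5 CPM in wild type. The green tissue sums of pms2ab and swp73b lay below every wild-type library. CAB1, a light-harvesting gene of that list, fell to means of 12102 CPM in brm, 12955 CPM in minu12, 9223 CPM in pms2ab and 11054 CPM in swp73b, against 19961 CPM in wild type. The other genes of that list did not follow it in brm, minu12 or swp73b. RBCS1A was called in no mutant, and RCA fell in pms2ab by 0.45 and rose in bcl7ab by 0.73. CASP1, a root endodermis gene, fell in brm and pms2ab by 0.82 and 0.60. The other root markers differed from it: COBL9 rose in brip12, swi3d and swp73b by 0.85, 0.80 and 1.04. EXPA7 rose in brip12 by 0.60 and fell in brm by 0.58. The part of these markers in the histone results was not tested.

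HIS1-3 was the member that moved furthest: it fell to between 5.44% and 26.1% of wild type in 8 of the 11 mutants. The core histone genes moved by smaller amounts, with the H4 genes lower together in brd1213, brip12, swi3d, swp73b and bcl7ab. In brm HTR2 and HTR1 of H3.1, HTA10 of H2A and both H2A.X genes rose while the H3.3 genes HTR4 and HTR5 fell. Parts of that pattern were also called elsewhere: HTA10 and the H2A.X gene HTA5 rose and HTR5 fell in minu12, pms2ab and swp73b too. A gene was called when limma's adjusted p was under 0.05, and log2 changes are on the log2(value + 1) scale of the deposited values. All 39 genes had values high enough to be tested.

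In brd1213, 20 of 39 members fell, a share of 51.3%, where 10.6% of all 23297 genes tested fell. In swi3d 17 fell (43.6%, against 11% of all genes), in brip12 16 (41%, against 13.2%) and in bcl7ab 16 (41%, against 14.2%). No member rose in those 4 mutants in limma, at an unadjusted p under 0.05, in edgeR or in DESeq2, where 9.23% (brd1213), 11.2% (swi3d), 11.8% (brip12) and 16.4% (bcl7ab) of all genes rose in limma. In swp73b 21 members fell (53.8%, against 25.5% of all genes) and 4 rose (10.3%, against 23.9%). In these 5 mutants the members' share of falls was above that of all genes, as it was in most of the others. Some of the counts moved by over 1.5 times in other fits: the 20 falls in brd1213 became 11 with those 2 groups alone, the 16 in bcl7ab became 28 with libraries scaled by their totals, the 16 in brip12 became 9 without brip12 library 1 or wild-type library 3 and 10 without brip12 library 3, and the 17 in swi3d became 11 without wild-type library 3.

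The share of falls was also above that of all genes in syd, sys123, minu12 and pms2ab. It was near that of all genes in brm and not above it in an3. In brm 12 members rose (30.8%, against 24.7% of all genes) and 11 fell (28.2%, against 25.5%), and 9 fell with libraries scaled by their totals. In minu12 5 rose (12.8%, against 24.1%) and 13 fell (33.3%, against 24.8%), and in pms2ab 6 rose (15.4%, against 29%) and 15 fell (38.5%, against 29.8%). In the libraries labelled syd 2 rose (5.13%, against 11.9%) and 11 fell (28.2%, against 11.3%). In sys123 4 rose (10.3%, against 14.2%) and 10 fell (25.6%, against 12.8%), and with libraries scaled by their totals the split was 2 and 19. Without 1 library the falls numbered as few as 6 in syd (syd library 1) and 5 in sys123 (sys123 library 2 or wild-type library 3), and the rises as few as 3 in pms2ab (pms2ab library 1 or wild-type library 1) and 0 in sys123 (wild-type library 3). In the libraries labelled an3 2 fell (5.13%, against 5.74%), HTA7 and HIS1-3, and no member rose in limma, at an unadjusted p under 0.05, in edgeR or in DESeq2 (all genes, 5.03% in limma). Over all mutants there were 33 rises and 152 falls, of which 19 rises and 96 falls were called in each fit that left out 1 library of the mutant or of wild type.

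**Figure D1:**
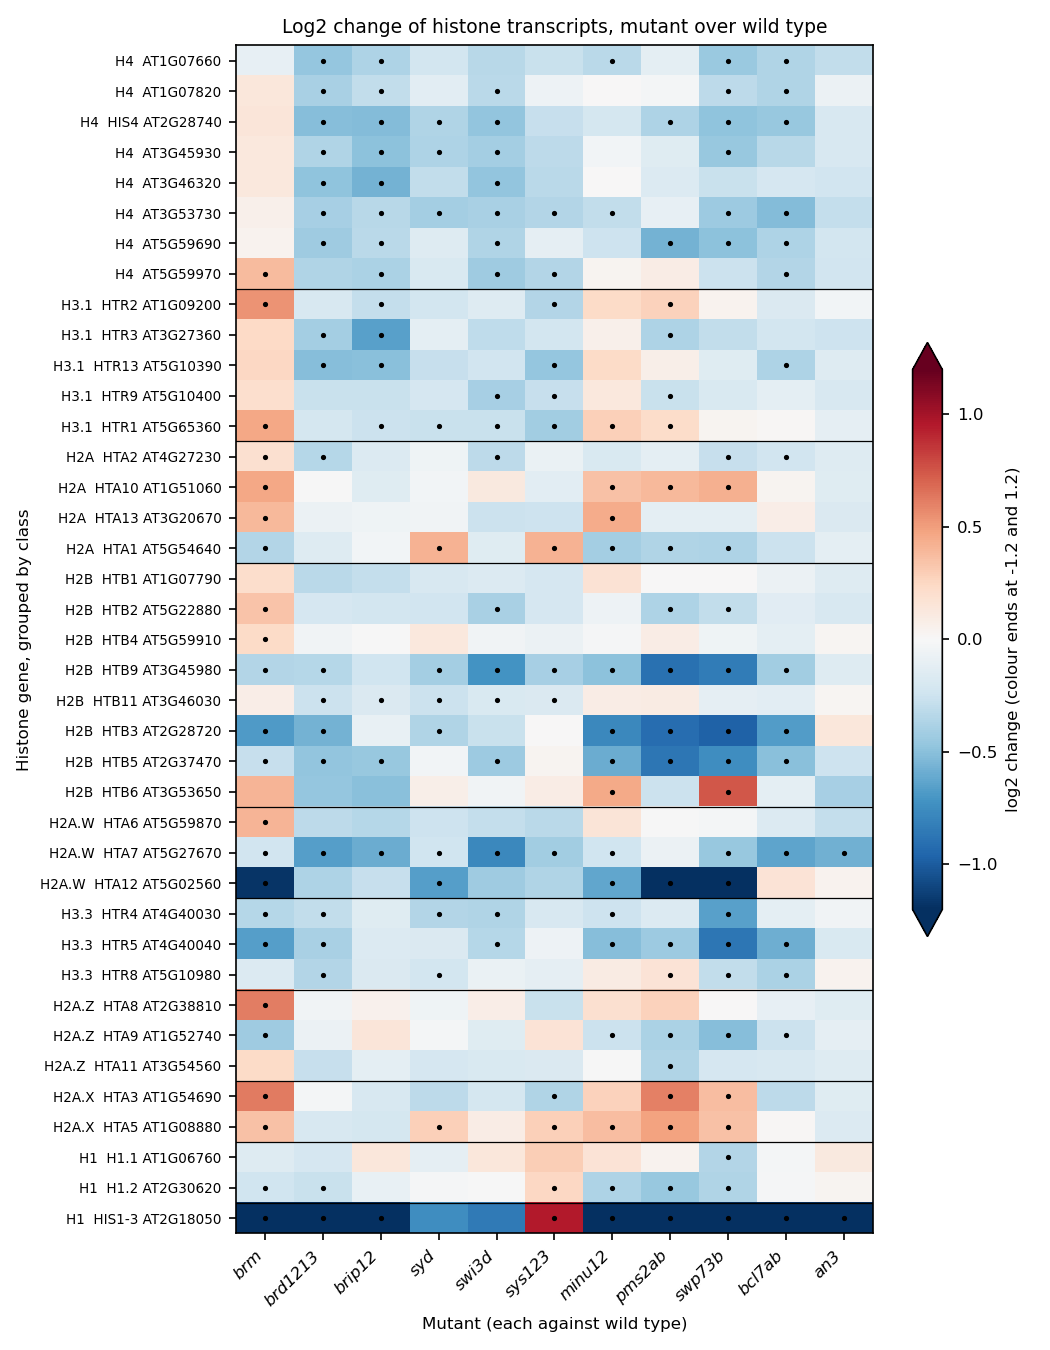
Log2 change of each of the 39 histone genes (rows, grouped by class) in each of the 11 mutants (columns) against wild type; dots mark calls at an adjusted p under 0.05, and the colour scale ends at -1.2 and 1.2. The H4 rows are mostly blue from brd1213 to bcl7ab with few dots in syd, sys123, minu12 and pms2ab, and the HIS1-3 row runs past the scale in 8 mutants.

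The H4 genes all code for the same core histone, and most of them fell together in some mutants. The class fell in 7 of 8 genes in brd1213, 8 of 8 in brip12, 7 of 8 in swi3d, and 6 of 8 in swp73b and bcl7ab, with class medians of -0.41, -0.37, -0.40, -0.44 and -0.36 on the log2 scale where the medians of all genes were between -0.01 and 0.01. With 1 library left out in turn, 4, 3, 3, 6 and 3 of these falls were called in every fit. HIS4 (AT2G28740) shares no exact 50-base stretch within an exon with another member. Near-matches and reads across exon junctions were not examined. It stood at 22.0, 27.5 and 23.9 CPM in brd1213 and at 25.2, 22.4 and 25.1 CPM in brip12, against 36.3, 33.2 and 34.6 CPM in wild type. Every library of both mutants lay below every wild-type library. HIS4 fell by 0.51 ± 0.11 (SE) in brd1213 (limma adjusted p = 0.000936) and by 0.52 ± 0.11 in brip12 (limma adjusted p = 0.000563). In swp73b it fell by 0.48 ± 0.11 (limma adjusted p = 0.000535).

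AT3G53730, another H4 gene with no shared stretch, fell in 8 mutants, the widest spread of falls in the class, and furthest in bcl7ab. It stood at 32.7, 31.2 and 28.9 CPM in bcl7ab, against 42.8, 46.0 and 44.3 CPM in wild type, a fall of 0.52 ± 0.10 (limma adjusted p = 0.000109). The groups did not overlap. AT5G59690 had the largest H4 change in pms2ab, at 42.6, 45.1 and 36.9 CPM against 60.7, 57.0 and 67.1 CPM in wild type, and fell by 0.57 ± 0.11 there (limma adjusted p = 3.97e-05). In brm the same gene was at 103% of wild type and was not called. Between the SAS and MAS class means AT5G59690 was higher in SAS by 0.20, while 5 of the 8 H4 genes were called lower. In that contrast 69.6% of all genes differed. The single H4 rise of the 11 mutants was AT5G59970 in brm, at 21.1, 21.5 and 20.8 CPM against 14.8, 14.7 and 19.8 CPM in wild type; without wild-type library 1 or 2 it was no longer called (highest limma adjusted p = 0.0962). Summed over the 8 genes, H4 transcripts were at 74.8% (swp73b) to 88.9% (minu12) of wild type in the 10 mutants other than brm, every library below every wild-type library, and at 108% in brm, where the groups overlapped.

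H3.1 is the S phase form of H3. Of its 5 genes 2 rose in brm, and 2 fell in brd1213, 4 in brip12, 1 in syd, 2 in swi3d and 4 in sys123. Both brm rises were called in each fit with 1 library left out, and of the falls 0, 1, 0, 1 and 2 were. HTR2 (AT1G09200) stood at 116, 104 and 97.9 CPM in brm, against 70.1, 72.4 and 76.2 CPM in wild type, and rose by 0.54 ± 0.10 (limma adjusted p = 4.76e-05). HTR1 (AT5G65360) stood at 114, 111 and 109 CPM in brm, against 75.6, 77.1 and 88.3 CPM in wild type, and rose by 0.47 ± 0.08 (limma adjusted p = 2.4e-05). The brm libraries of both genes lay above all wild-type libraries. HTR1 also rose in minu12, at 101, 91.2 and 100 CPM (0.28 ± 0.08, limma adjusted p = 0.00567). In the other direction HTR1 fell in sys123, at 59.8, 58.0 and 62.0 CPM (-0.42 ± 0.08, limma adjusted p = 0.000333), and HTR3 (AT3G27360) fell in brip12, at 6.79, 7.37 and 6.48 CPM against 11.3, 9.24 and 12.2 CPM in wild type (-0.65 ± 0.14, limma adjusted p = 0.00055). In pms2ab HTR2 and HTR1 rose by 0.27 and 0.22, calls lost without pms2ab library 1 or wild-type library 1 and, for HTR1, also without library 2 of either (highest limma adjusted p = 0.0841 and 0.104). In pms2ab too, HTR3 and HTR9 fell by 0.37 and 0.26, calls lost without pms2ab library 1 or wild-type library 1 or 3 for HTR3 and without library 2 or 3 of either for HTR9 (highest limma adjusted p = 0.121 and 0.116). HTR13 (AT5G10390) fell in 4 mutants, by 0.51 in brd1213, 0.50 in brip12, 0.47 in sys123 and 0.37 in bcl7ab, each call lost without wild-type library 3 (highest limma adjusted p 0.0581 to 0.216). The summed H3.1 level was 299, 275 and 266 CPM in brm and 163, 159 and 160 CPM in sys123, against 197, 201 and 224 CPM in wild type, so it ran above wild type in brm and below it in sys123.

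HTR2, HTR1 and HTA10 are shown here with the 250 bases that precede their annotated gene starts, because they are the replication-linked genes with the largest called rises in brm. The sequences are read 5′ to 3′ on the gene's strand from the RefSeq genome TAIR10.1, and capitals mark the octamer CGCGGATC or its reverse complement, an element known from plant histone promoters.
HTR2 (chr1:2972335-2972584, minus strand): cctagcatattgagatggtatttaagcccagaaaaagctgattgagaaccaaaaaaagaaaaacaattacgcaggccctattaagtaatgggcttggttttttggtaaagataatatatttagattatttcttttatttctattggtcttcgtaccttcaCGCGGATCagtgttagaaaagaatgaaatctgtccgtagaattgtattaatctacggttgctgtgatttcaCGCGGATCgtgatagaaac
HTR1 (chr5:26120582-26120831, minus strand): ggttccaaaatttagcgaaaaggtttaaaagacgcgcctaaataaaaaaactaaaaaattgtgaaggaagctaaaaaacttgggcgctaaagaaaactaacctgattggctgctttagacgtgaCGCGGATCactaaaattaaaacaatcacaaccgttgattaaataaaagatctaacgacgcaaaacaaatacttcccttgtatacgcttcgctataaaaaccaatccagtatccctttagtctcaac
HTA10 (chr1:18926561-18926810, plus strand): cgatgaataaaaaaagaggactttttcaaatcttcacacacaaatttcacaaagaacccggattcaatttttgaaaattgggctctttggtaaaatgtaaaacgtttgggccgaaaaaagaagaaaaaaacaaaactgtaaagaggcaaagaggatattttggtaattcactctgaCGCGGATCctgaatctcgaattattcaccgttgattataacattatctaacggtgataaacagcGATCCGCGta

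The octamer stood in 10 of the 39 members' promoters on either strand, and in 0.135% of 27443 promoters of the same length. The 10 are H4 AT1G07660 and AT5G59690, HTR2, HTR9, HTR1, HTR5, HTA10, HTA13, HTA6 and H1.1, which span replication-linked, replacement, heterochromatin and linker classes. HTR2 holds it 90 and 19 bases before its start, HTR1 126 bases before, and HTA10 74 and 10 bases before. In brm 5 of the 10 octamer genes rose and 1 fell, with a median log2 change of 0.30, and of the 29 members without it 7 rose and 10 fell, with a median of 0.13. In brd1213 the octamer genes held 3 falls in 10 and the others 17 in 29, in brip12 4 and 12, in swi3d 4 and 13, in swp73b 4 and 17 and in bcl7ab 3 and 13, beside the shares of all genes given above. The octamer stood in 0 of the 8 H2B promoters and not in that of HIS1-3, so the members with and without it also differ in class. A letter match is a description of the sequence and not a bound site.

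The 4 H2A genes of the major form did not move as a block. HTA10 (AT1G51060) stood at 88.4, 80.7 and 79.0 CPM in brm, against 55.5, 59.1 and 64.8 CPM in wild type, and rose by 0.47 ± 0.09 (limma adjusted p = 6.37e-05). It also rose in minu12, pms2ab and swp73b by 0.35 to 0.43, with every library above wild type. HTA13 (AT3G20670) rose in brm by 0.39 and in minu12 by 0.45. HTA1 (AT5G54640), whose RefSeq symbol is RAT5 for its part in Agrobacterium T-DNA integration, went the other way in those mutants. It stood at 19.5, 21.1 and 18.3 CPM in minu12 and at 34.4, 35.0 and 34.6 CPM in sys123, against 27.2, 29.0 and 22.2 CPM in wild type. It fell in minu12 by 0.41 ± 0.11 (limma adjusted p = 0.00298) and in brm, pms2ab and swp73b by 0.35 to 0.37, and rose in sys123 and in the libraries labelled syd by 0.42 in each. Without wild-type library 3 neither rise was called, nor was that in syd without syd library 3 (highest limma adjusted p = 0.0659 in sys123 and 0.0643 in syd), and without wild-type library 2 the falls in brm, pms2ab and swp73b were not (limma adjusted p = 0.0634, 0.051 and 0.0502). HTA2 (AT4G27230) fell by 0.35 in brd1213 and 0.28 in swp73b, fell also in swi3d and bcl7ab, and rose by 0.19 in brm.

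Among the 8 H2B genes, HTB9, HTB3 and HTB5 carried most of the falls, with 9, 7 and 8 mutants. HTB9 (AT3G45980) stood at 21.1, 24.5 and 22.6 CPM in pms2ab and at 29.3, 27.4 and 21.3 CPM in swi3d, against 43.5, 42.3 and 40.9 CPM in wild type. It fell by 0.90 ± 0.11 in pms2ab (limma adjusted p = 4.01e-08) and by 0.71 ± 0.11 in swi3d (limma adjusted p = 1.75e-05), and it was not called in brip12 or an3. HTB3 (AT2G28720) was lowest in swp73b, at 23.3, 22.5 and 17.9 CPM against 43.2, 44.0 and 37.4 CPM in wild type, a fall of 0.97 ± 0.13 (limma adjusted p = 4.69e-07). HTB5 (AT2G37470) stood at 17.0, 19.1 and 14.7 CPM in pms2ab, against 31.7, 28.6 and 31.7 CPM in wild type, and fell by 0.86 ± 0.09 (limma adjusted p = 5.37e-09). All 3 genes lay below every wild-type library in each mutant where they fell. HTB6 (AT3G53650) rose in swp73b, at 8.59, 6.37 and 7.77 CPM against 3.96, 4.32 and 5.17 CPM in wild type (0.75 ± 0.19, limma adjusted p = 0.00152), in the same libraries where HTB3 fell. HTB4 and HTB2 rose in brm by 0.23 and 0.34, and HTB2 fell in swi3d (by 0.39), pms2ab and swp73b. HTB11 (AT3G46030) fell in 5 mutants by 0.17 to 0.26, and the syd fall alone was called in each fit with 1 library left out. Of 32 H2B falls over all mutants 23 were called in each such fit. HTB1 (AT1G07790) came nearest to a call in brd1213, at 17.6 CPM against 21.9 CPM in wild type (limma adjusted p = 0.0559).

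HTB3, HTB5 and HTB9 are shown with the 250 bases before their starts because they fell furthest among the replication-linked genes. Capitals mark the hexamer ACGTCA and, joined to it in HTB5 and HTB9, the overlapping abscisic acid response letters ACGTGTC or ACGTGGC, each on either strand.
HTB3 (chr2:12326558-12326807, plus strand): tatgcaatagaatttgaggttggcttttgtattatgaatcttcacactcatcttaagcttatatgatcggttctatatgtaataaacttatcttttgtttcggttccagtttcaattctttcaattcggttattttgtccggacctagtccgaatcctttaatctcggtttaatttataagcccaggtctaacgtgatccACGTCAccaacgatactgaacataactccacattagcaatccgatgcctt
HTB5 (chr2:15736477-15736726, plus strand): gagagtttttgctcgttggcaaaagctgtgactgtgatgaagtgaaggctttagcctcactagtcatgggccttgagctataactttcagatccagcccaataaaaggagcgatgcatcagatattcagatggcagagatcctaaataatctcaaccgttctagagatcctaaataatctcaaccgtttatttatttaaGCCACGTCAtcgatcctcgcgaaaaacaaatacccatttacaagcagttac
HTB9 (chr3:16898014-16898263, minus strand): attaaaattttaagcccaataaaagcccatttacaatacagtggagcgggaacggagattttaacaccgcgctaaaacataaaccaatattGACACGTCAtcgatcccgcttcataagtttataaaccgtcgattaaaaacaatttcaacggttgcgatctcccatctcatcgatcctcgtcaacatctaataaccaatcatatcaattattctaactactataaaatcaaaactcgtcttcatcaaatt

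The hexamer stood in 7 of 8 H2B promoters, in 10 of the 39 members and in 7.69% of all promoters; HTB4 was the H2B gene without it. It was shared by H2B genes that fell (HTB3, HTB5, HTB9) and by HTB6, which rose in swp73b. The abscisic acid response letters stood in 4 members and 6.39% of all promoters, and in all 4 they overlapped a hexamer. Of the other letters searched, the E2F letters TTTCCCGC, TTTGGCGC, TTTGCCGC and TTTCGCGC stood in 3 members, 2 of them H4 genes, and in 1.41% of all promoters, and in 7 of 21 genes of a list for S phase and DNA replication. The drought response letters ACCGAC or GCCGAC stood in 3 members, HTB6 and both H2A.X genes, and in 7.09% of all promoters.

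**Figure D2:**
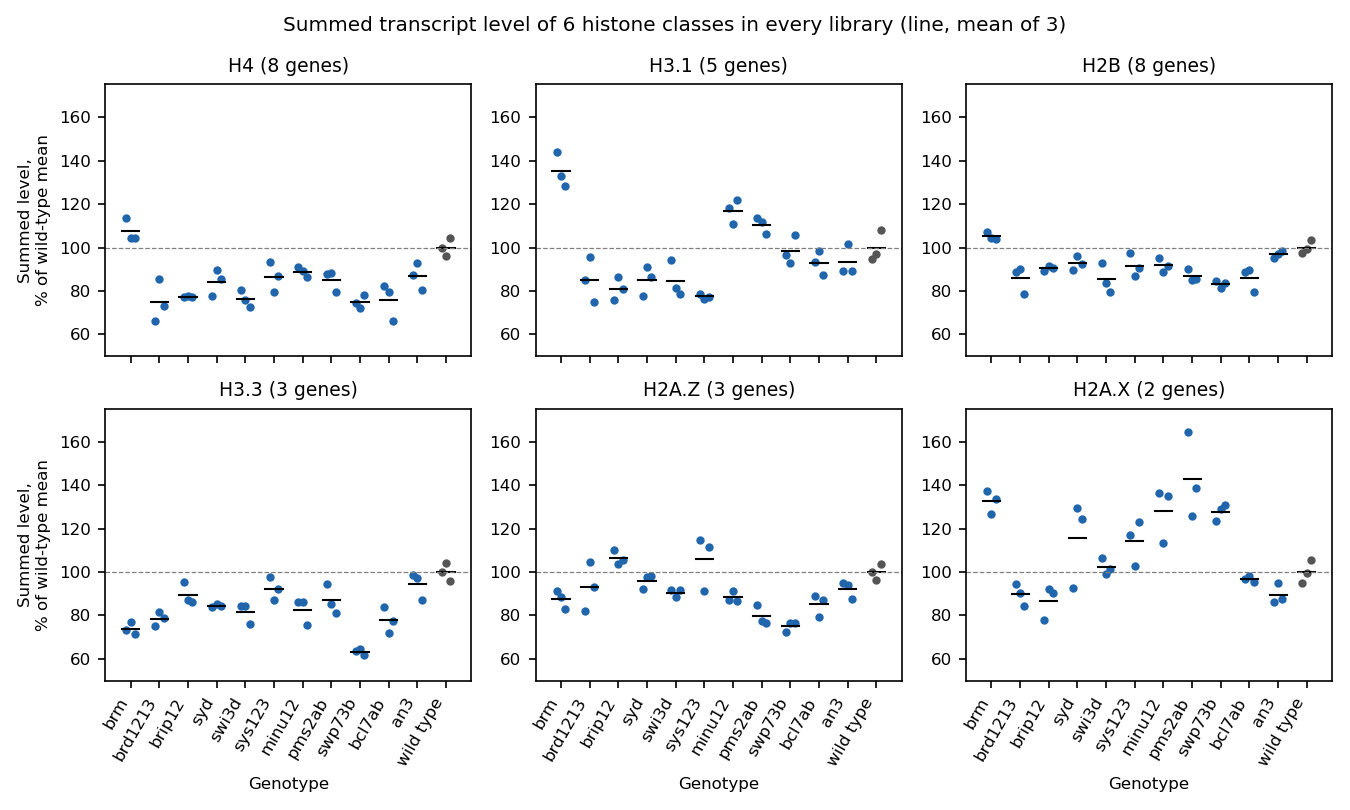
Summed transcript level of 6 histone classes in every library, as a percentage of the wild-type mean (points, libraries; line, mean of 3), with mutants to the left of wild type. H3.1 and H2A.X stand above 100% in brm, minu12 and pms2ab, H4 below it in all mutants but brm, and H3.3 is lowest in swp73b at 63.2%.

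The replacement variants moved in both directions. H3.3 genes fell in 8 mutants, and HTR5 (AT4G40040) by the largest amount. It stood at 150, 157 and 141 CPM in swp73b and at 171, 184 and 163 CPM in brm, against 282, 279 and 256 CPM in wild type. It fell by 0.87 ± 0.09 in swp73b (limma adjusted p = 5.29e-09) and by 0.66 ± 0.09 in brm (limma adjusted p = 3.26e-07), and in bcl7ab by 0.58, minu12 by 0.51, pms2ab by 0.43, brd1213 by 0.39 and swi3d by 0.34. Of 17 H3.3 falls over all mutants 15 were called in each fit with 1 library left out. The single H3.3 rise was HTR8 in pms2ab (0.16, limma adjusted p = 0.0463), which overlapped wild type, was not called by edgeR and was lost without pms2ab library 1 or 2 or wild-type library 1 or 3 (highest limma adjusted p = 0.284). HTR4 (AT4G40030), another H3.3 gene, stood at 130, 136 and 126 CPM in swp73b, against 199, 214 and 203 CPM in wild type, and fell by 0.65 ± 0.07 (limma adjusted p = 4.01e-08). HTR8 (AT5G10980), the third, was called lower in 4 mutants, by 0.38 in bcl7ab and 0.35 in brd1213; in brm it averaged 109 CPM against 122 CPM in wild type and was not called (limma adjusted p = 0.055). Summed over the 3 genes, H3.3 was at 380, 386 and 371 CPM in swp73b and at 440, 461 and 429 CPM in brm, against 599, 625 and 575 CPM in wild type. In brm, then, the H3.3 sum was below and the H3.1 sum above every wild-type library.

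Of the H2A.X genes both rose in brm, pms2ab and swp73b, and HTA5 alone in minu12. HTA3 (AT1G54690, RefSeq symbol GAMMA-H2AX) stood at 23.7, 20.9 and 20.5 CPM in brm and at 22.3, 19.5 and 22.2 CPM in pms2ab, against 12.8, 12.8 and 16.7 CPM in wild type. It rose by 0.63 ± 0.12 in brm (limma adjusted p = 9.73e-05) and by 0.60 ± 0.12 in pms2ab (limma adjusted p = 0.000115). Its rise of 0.37 in swp73b was lost without swp73b library 3 or wild-type library 1 or 2 (highest limma adjusted p = 0.0943). HTA3 fell in sys123 by 0.36, a call lost without sys123 library 1 or 2 or wild-type library 3 (highest limma adjusted p = 0.236). HTA5 (AT1G08880) rose in 6 mutants, furthest in pms2ab, at 102, 76.0 and 83.0 CPM against 59.4, 62.6 and 63.4 CPM in wild type (0.48 ± 0.10, limma adjusted p = 0.000199). In the libraries labelled syd and in sys123 its rises of 0.29 were lost in 5 of the 6 fits that left out 1 library (highest limma adjusted p = 0.24 and 0.162).

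H2A.Z divided by gene. HTA9 (AT1G52740) fell in 5 mutants and stood at 53.2, 57.8 and 55.4 CPM in swp73b, against 81.4, 76.8 and 78.8 CPM in wild type (-0.51 ± 0.08, limma adjusted p = 4.82e-06). HTA8 (AT2G38810) rose in brm, at 9.75, 9.03 and 8.88 CPM against 5.17, 5.68 and 7.37 CPM in wild type (0.61 ± 0.15, limma adjusted p = 0.00108), and HTA11 (AT3G54560) fell in pms2ab by 0.37. In brm HTA9 fell by 0.42 while HTA8 rose, so 2 genes for the same variant had opposite changes in the same libraries.

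H2A.W, the heterochromatin form, held both the most widespread fall and the largest fall among the core histone genes of the 39. HTA7 (AT5G27670) was called lower in 10 of 11 mutants, the exception being pms2ab. It stood at 31.0, 27.6 and 31.2 CPM in swi3d and at 31.5, 35.2 and 36.5 CPM in the libraries labelled an3, against 54.4, 52.4 and 46.9 CPM in wild type. It fell by 0.77 ± 0.08 in swi3d (limma adjusted p = 7.04e-08), by 0.66 in brd1213, 0.63 in bcl7ab, 0.60 in brip12 and 0.57 in an3. Its smaller falls in brm, syd and minu12 (0.23 to 0.24) were each lost without wild-type library 1 or 2, and also without brm library 3 or syd library 1 or 3 (highest limma adjusted p = 0.0979, 0.23 and 0.0872). HTA12 (AT5G02560) followed another order of mutants. It stood at 3.70, 4.83 and 3.78 CPM in pms2ab, at 7.69, 6.66 and 5.15 CPM in swp73b and at 4.63, 7.66 and 8.25 CPM in brm, against 13.7, 17.5 and 14.2 CPM in wild type. It fell by 1.87 ± 0.18 in pms2ab (limma adjusted p = 7.64e-10), by 1.22 ± 0.18 in swp73b (limma adjusted p = 3.23e-06) and by 1.17 ± 0.18 in brm (limma adjusted p = 4.5e-06). HTA6 (AT5G59870) rose in brm by 0.41 and was called in no other mutant; without brm library 1 that rise was not called (limma adjusted p = 0.0659).

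Of the main linker histones, H1.2 (AT2G30620) fell in 5 mutants and rose in sys123. It stood at 110, 112 and 106 CPM in pms2ab and at 174, 176 and 185 CPM in sys123, against 152, 162 and 137 CPM in wild type. The fall in pms2ab was 0.46 ± 0.08 (limma adjusted p = 8.44e-06), and those in minu12 and swp73b were 0.37 and 0.36. The rise in sys123 was 0.25 ± 0.08 (limma adjusted p = 0.0163) and was lost without sys123 library 3 or wild-type library 3 (highest limma adjusted p = 0.119). H1.1 (AT1G06760) was called once, lower in swp73b by 0.35, a call lost without swp73b library 3 or wild-type library 2 (highest limma adjusted p = 0.0921).

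HIS1-3 (AT2G18050), the stress linker histone, gave the largest changes of all members. It stood at 2.68, 3.40 and 2.84 CPM in minu12, at 2.91, 4.47 and 3.69 CPM in bcl7ab and at 1.72, 6.51 and 7.59 CPM in brm, against 57.4, 60.8 and 45.8 CPM in wild type. Each of those 9 libraries was far below each wild-type library. The log2 change was -4.18 ± 0.33 in minu12 (limma adjusted p = 2.44e-11), -3.88 ± 0.33 in bcl7ab (limma adjusted p = 9.24e-10) and -3.61 ± 0.33 in brm (limma adjusted p = 6.82e-10). Of the brm libraries, library 1 was lowest for HIS1-3 and for residual BRM reads, while library 2 had more BRM reads and less HIS1-3 than library 3.

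A middle group kept 20.4% to 26.1% of the wild-type level. HIS1-3 averaged 11.2 ± 2.14 CPM in brd1213, 12.5 ± 2.74 CPM in swp73b, 13.7 ± 2.69 CPM in pms2ab, 13.8 ± 2.71 CPM in brip12 and 14.3 ± 2.14 CPM in the libraries labelled an3, against 54.7 ± 7.83 CPM in wild type (SD, n = 3 each). The falls ran from 1.93 (an3) to 2.30 (brd1213) on the log2 scale, all called, with limma adjusted p from 4.84e-06 to 0.000123. In the SAS mutants swi3d and syd it averaged 30.5 ± 6.25 and 33.6 ± 11.6 CPM and was not called (-0.85, limma adjusted p = 0.0642 in swi3d, and -0.74, limma adjusted p = 0.108 in syd). The swi3d fall was called by edgeR (adjusted p = 0.0227) and by DESeq2 (adjusted p = 0.0474). In sys123 it stood at 103, 79.4 and 142 CPM, all above wild type, and rose by 0.95 ± 0.33 (limma adjusted p = 0.0324); that call was lost without sys123 library 1 or 3 or wild-type library 1 or 3 (highest limma adjusted p = 0.164).

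Between mutants the HIS1-3 levels formed steps. Within the lowest 3 (minu12, bcl7ab, brm), within the 5 of the middle group, and between swi3d and syd, the smallest limma adjusted p of a pair was 0.158, which does not show that the levels are equal. Across the steps, brm was lower than brd1213 by 1.31 ± 0.33 (limma adjusted p = 0.00225), swi3d was higher than an3 by 1.08 ± 0.33 (limma adjusted p = 0.0224; 16.6% of all genes differed), and swi3d was lower than sys123 by 1.80 ± 0.33 (limma adjusted p = 0.000703; 15.5% of all genes differed). Averaged over classes, BAS mutants were lower than SAS mutants by 2.42 ± 0.19 (limma adjusted p = 8.25e-12) and SAS higher than MAS by 2.87 ± 0.21 (limma adjusted p = 6.28e-13). BAS and MAS differed by 0.46 ± 0.21, which was not called (limma adjusted p = 0.063). Within the MAS class minu12 was lower than pms2ab by 2.18 ± 0.33 (limma adjusted p = 1.29e-05), so the class mean covers 2 unlike values. The BAS and SAS means cover unlike values too, as the differences of brm from brd1213 and of swi3d from sys123 above show. In SAS only sys123 stood above wild type.

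**Figure D3:**
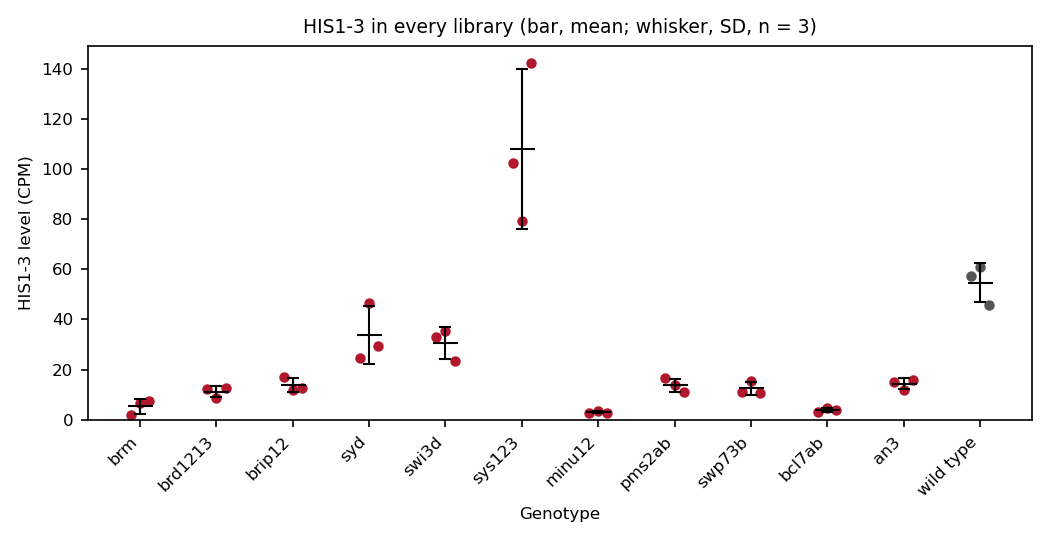
HIS1-3 level in CPM in each library (points), with the mean (bar) and SD of 3 libraries (whisker), mutants to the left of wild type. The minu12, bcl7ab and brm libraries lie below 8 CPM, and the 3 sys123 libraries lie above all 3 wild-type libraries.

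HIS1-3 is shown with the 250 bases before its start because it is the member with the largest change. None of the letters searched was found in this window, so no capitals appear.
HIS1-3 (chr2:7845673-7845922, plus strand): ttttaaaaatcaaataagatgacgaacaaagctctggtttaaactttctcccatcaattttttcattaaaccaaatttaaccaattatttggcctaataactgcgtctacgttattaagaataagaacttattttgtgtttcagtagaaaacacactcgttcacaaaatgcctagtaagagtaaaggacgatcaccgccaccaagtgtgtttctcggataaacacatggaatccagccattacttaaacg

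A list of 12 drought and abscisic acid response genes was read beside HIS1-3. In the BAS mutants 11 (brm), 10 (brd1213) and 9 (brip12) of its genes fell, where 25.5%, 10.6% and 13.2% of all genes fell. In minu12 and pms2ab 11 each fell (all genes, 24.8% and 29.8%). In swp73b, bcl7ab and an3, 6, 8 and 9 fell (all genes, 25.5%, 14.2% and 5.74%). The part of this list's change in the HIS1-3 result was not tested. In the SAS mutants the list was mixed, with 2 rises and 1 fall in the libraries labelled syd, 4 and 5 in swi3d and 5 and 4 in sys123. Of all genes 11.9%, 11.2% and 14.2% rose and 11.3%, 11% and 12.8% fell in these mutants. HAI1, a phosphatase gene of abscisic acid signalling, averaged 1.32 CPM in brm against 71.9 CPM in wild type, and NCED3, which codes for a rate-limiting enzyme of abscisic acid synthesis, averaged 4.22 CPM in brm against 158 CPM in wild type. In sys123 RD29B and RAB18, late targets of the hormone, rose by 2.92 and 1.58 while NCED3 and RD26 fell by 2.22 and 1.01. Over the 12 genotype means, Pearson's r of log2 levels with HIS1-3 was 0.212 (KIN1) to 0.835 (ERD10) for these genes. The 5 genes most like HIS1-3 among 8503 named genes whose deposited values averaged 25 or more were HVA22K (r = 0.94), LCD (0.933), MTP11 (0.90), NTMC2T6.2 (0.894) and SERK4 (0.879), given as a description over 12 means that share libraries and scaling.

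The difference between brm and brd1213, both BAS mutants, was tested directly. Of the 39 members 28 were higher in brm and 4 lower, where 19.8% and 19.2% of all genes were. All 8 H4 and all 5 H3.1 genes were higher in brm, with class medians of 0.51 and 0.68 on the log2 scale. HTR13 averaged 15.8 CPM in brm and 9.45 CPM in brd1213 (0.76 ± 0.14, limma adjusted p = 6.15e-05). AT5G59970 averaged 21.1 CPM in brm and 12.8 CPM in brd1213 (0.74 ± 0.13, limma adjusted p = 6.65e-05), and HTB6 averaged 5.94 CPM in brm and 3.33 CPM in brd1213 (0.87 ± 0.19, limma adjusted p = 0.000519). The 4 lower in brm were HIS1-3, HTA12 (-0.80 ± 0.18), HTA9 (-0.36 ± 0.08) and HTR5 (-0.27 ± 0.09). HTB9 and HTB3, which fell in both mutants, did not differ by a called amount (-0.0033 ± 0.11 and -0.11 ± 0.13).

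**Figure D4:**
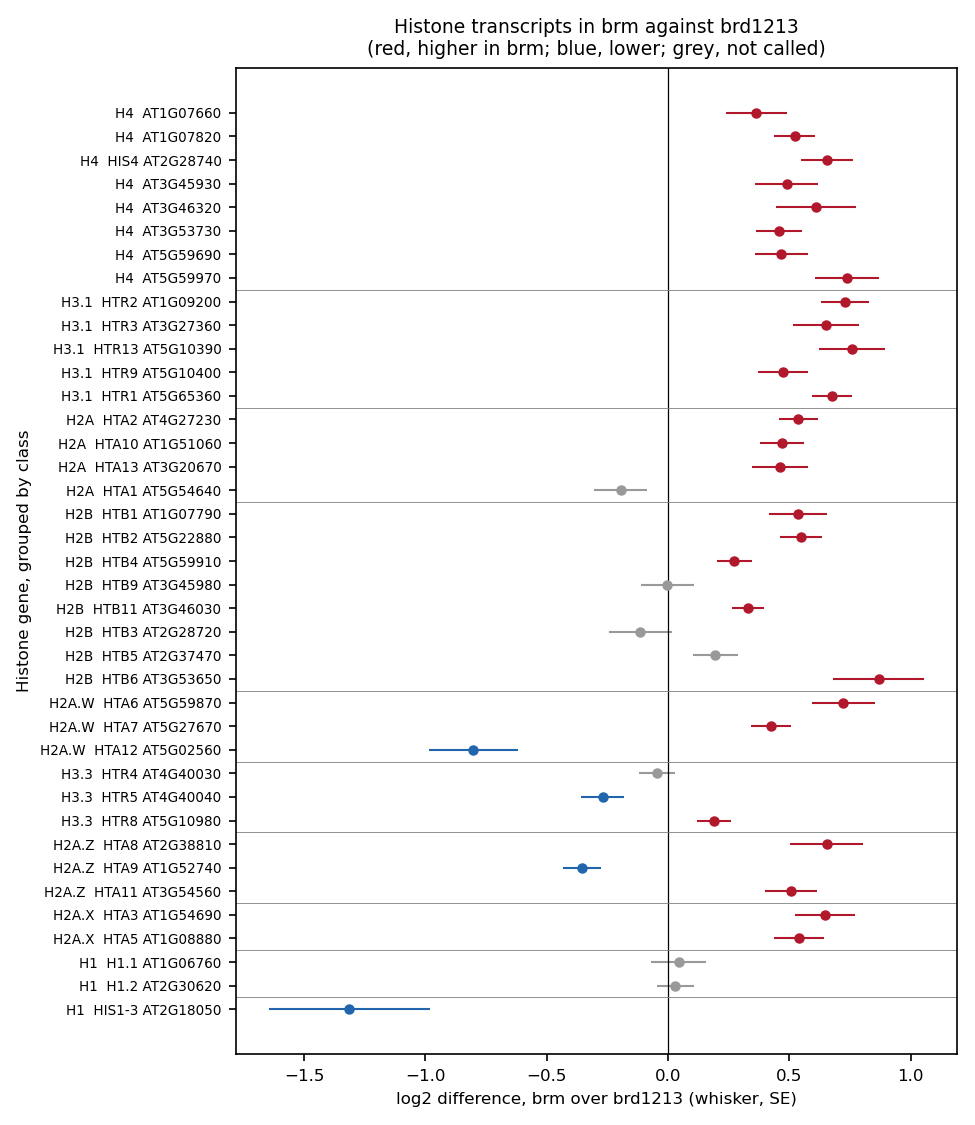
Log2 difference of each histone gene between brm and brd1213 (point; whisker, SE), grouped by class; red is higher in brm, blue lower and grey not called. All H4 and H3.1 genes lie to the right of 0, and HIS1-3 lies furthest to the left, at -1.31.

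Between brd1213 and brip12, 1 of 39 members was called (HTB3, at 28.0 CPM in brd1213 and 39.1 CPM in brip12, limma adjusted p = 0.0356), where 3.06% of all genes were. The count was 2 without brd1213 library 1 and 0 without any other single library of the 2 mutants. Between minu12 and pms2ab 10 members were higher and 2 lower in minu12, where 29.2% of all genes differed. The largest was HTA12, at 9.77 CPM in minu12 and 4.10 CPM in pms2ab (1.25 ± 0.18, limma adjusted p = 8.58e-06), and the 2 lower were HIS1-3 and HTA3. Between class means, BAS over SAS had 12 members higher and 9 lower (all genes called, 56.2%), BAS over MAS 9 and 13 (64.7%) and SAS over MAS 10 and 19 (69.6%). HTA1 was higher in SAS than in MAS by 0.61 ± 0.07 (limma adjusted p = 7.46e-09) and HTR1 lower by 0.57 ± 0.05 (limma adjusted p = 9.27e-11).

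Markers of dividing cells moved with part of these results. Of 21 genes for S phase and DNA replication, 17 rose in brm, 17 in minu12 and 14 in pms2ab, with median log2 changes of 0.46, 0.53 and 0.45. Of all genes 24.7%, 24.1% and 29% rose there. Their summed level ran from 447 to 490 CPM in brm, 467 to 518 CPM in minu12 and 498 to 533 CPM in pms2ab, against 286 to 339 CPM in wild type. TSO2, a subunit of the enzyme that makes deoxyribonucleotides, averaged 104 CPM in brm, 116 CPM in minu12 and 130 CPM in pms2ab, against 57.5 CPM in wild type. The list fell in the libraries labelled syd (8 genes, with 1 rise) and in sys123 (11 genes, with 1 rise), where 11.3% and 12.8% of all genes fell. In brd1213, brip12 and swi3d, where H4 fell in 7, 8 and 7 of 8 genes, the S phase list had at most 1 rise and 1 fall and medians of -0.12, -0.15 and -0.12. Of all genes 9.23% to 11.8% rose and 10.6% to 13.2% fell in these mutants. In swp73b, where 6 of 8 H4 genes fell, 5 of the 21 S phase genes rose, a share close to that of all genes (23.9%). The summed level there ran from 400 to 406 CPM, above every wild-type library. In bcl7ab, also with 6 H4 falls, 2 S phase genes rose (all genes, 16.4%) and the sum ran from 315 to 399 CPM, overlapping wild type. Of 15 genes for mitosis, 8 rose in minu12, 7 in swp73b and 4 in swi3d (all genes, 24.1%, 23.9% and 11.2%). In brd1213 and in brip12 4 fell (all genes, 10.6% and 13.2%). Of this list AUR2 alone rose in brm, where 24.7% of all genes rose. The list's summed level was above every wild-type library (134 to 169 CPM) in minu12, swp73b and swi3d. The sum overlapped wild type in brm (143 to 176 CPM) and pms2ab (157 to 164 CPM). The shoot meristem marker STM rose in brm, minu12, pms2ab, swp73b and bcl7ab (1.59, 2.13, 3.07, 1.29 and 0.995 CPM, against 0.415 CPM in wild type), and WUS and CLV3 were at 0 in wild type and at most 0.0817 CPM in any mutant. The part of these lists in the histone results was not tested. In these seedling samples a change in the share of dividing cells and a change in histone transcripts per cell cannot be told apart.

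**Figure D5:**
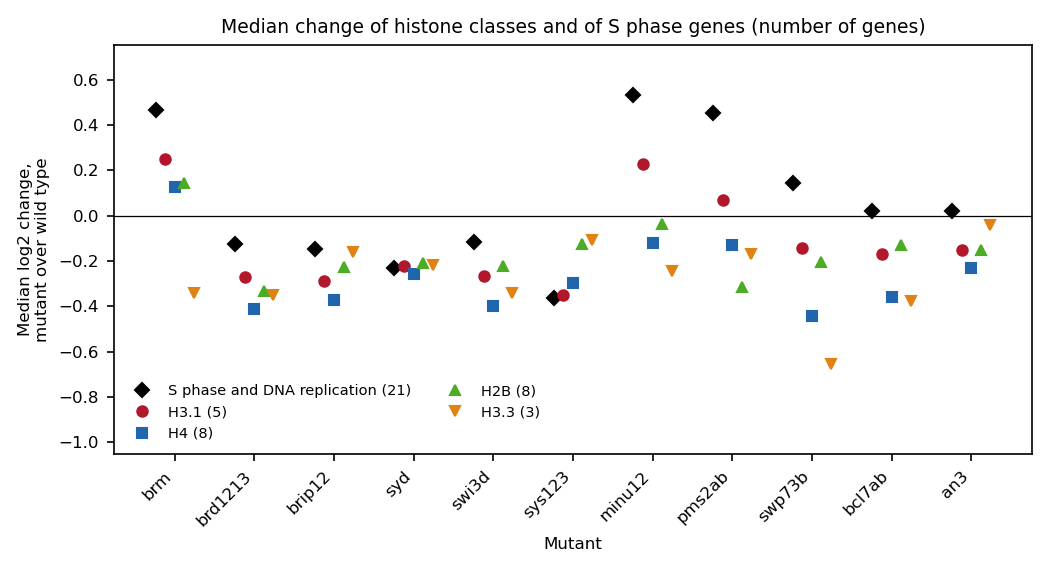
Median log2 change against wild type of 4 histone classes and of 21 S phase genes in each mutant. The S phase diamond is highest in brm, minu12 and pms2ab, where H3.1 is also above 0, and H3.3 lies below 0 in every mutant.

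Genes that handle histones were read beside the members. Of 17 genes for histone chaperones and exchange, 8 rose and 2 fell in brm (47.1% and 11.8%, against 24.7% and 25.5% of all genes), 7 and 4 in minu12 (41.2% and 23.5%, against 24.1% and 24.8%), 8 and 3 in pms2ab (47.1% and 17.6%, against 29% and 29.8%) and 6 and 5 in swp73b (35.3% and 29.4%, against 23.9% and 25.5%). The shares of falls in brm, minu12 and pms2ab were below those of all genes. NRP1 and NRP2, chaperones of the NAP1 family, averaged 125 and 65.5 CPM in brm and 128 and 49.7 CPM in pms2ab, against 63.2 and 28.3 CPM in wild type (all 4 called), and SSRP1 and SPT16, the subunits of FACT, fell by 0.35 and 0.26 in brm. ASF1B, a chaperone of H3 and H4, fell by 0.93 in minu12 and by 1.46 in pms2ab. FAS2, a subunit of the assembly factor CAF-1, fell by 0.95 in sys123, averaging 3.23 CPM there and 6.28 CPM in wild type. Of 9 further histone genes 6 were tested. HTR12, the centromeric H3, averaged 8.88 CPM in minu12 and 8.07 CPM in pms2ab, against 3.35 CPM in wild type (rises of 1.47 and 1.34), and HTA4 fell in 5 mutants, furthest in pms2ab (0.162 CPM, against 5.42 CPM in wild type).

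The members varied together only in part. Over the 12 genotype means the median Pearson's r of log2 levels was 0.544 for pairs of the 25 replication-linked genes (range -0.845 to 0.957), 0.0804 for pairs of the 8 replacement genes (range -0.777 to 0.898), and -0.211 for HIS1-3 with the replication-linked genes (range -0.731 to 0.783). Near-identical copies limit single-gene values: 27 members share no exact 50-base exon stretch with another gene, and 12 share some. Of these 4 share over 10%, the H4 pairs AT1G07660 with AT1G07820 and AT3G45930 with AT3G46320 (up to 30.8%). The sources used here do not say how the authors' counting treated such reads, so at least those 4 H4 levels are uncertain.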

How the data were processed

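Per the labels, total RNA of seedlings was read in single 50-bp reads (BGISEQ500). HISAT2, edgeR and TAIR10 stand in the submitters' processing notes, with no versions. The deposited signal values in 11 tables are not whole reads: in the authors' files they have the form of edgeR pseudo-counts at a common library size of 23089154, with 66 value columns covering 36 libraries. Inverting that step with a common dispersion of 0.0127 gave whole reads within 0.01 for 99.99735% of 1171728 values (31 were not matched), and the scaling equals TMM to within 0.000196 on the log2 scale.

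Since the values are normalized, the planned fallback from edgeR was used: limma 3.58.1 (trend) in R 4.3.3 on log2(value + 1), 1 fit over 36 libraries, with genes of mean value 1 or more and Benjamini-Hochberg adjustment within each comparison. edgeR 4.0.16 and DESeq2 1.42.0 on the recovered reads, other scalings, filters and pseudocounts, fits of 2 groups, the replicate block and leaving out each library were alternatives. The fit was tested on simulated data. The labels do not say that replicate numbers pair the samples, so the main fit has no block. The members and gene lists were chosen with earlier results of these data known. Members are named by class, with values in every library for the largest called changes in a class. Of the other lists, the genes named are the highest and lowest called. All 122 loci of the lists are in the gene table of TAIR10.1, and some gene names come from knowledge of the families. Promoters are the 250 bases before each annotated gene start in the TAIR10.1 RefSeq genome, searched on both strands, and 10 of the 39 overlap another gene. Python 3.11.15, pandas 2.3.3 and matplotlib 3.10.9 were used.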

Additional observations from a re-analysis of the deposited data

How the results depend on the processing

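Of 185 calls of a member in a mutant against wild type, none changed direction under any alternative run. Another pseudocount (0.1 or 5) lost 0 of them and gained 0. DESeq2 lost 0 and gained 13, and median-ratio scaling lost 0 and gained 3. The replicate block lost 2 and gained 9, edgeR lost 4 and gained 8, and no filter lost 15 and gained 0. Scaling by library totals lost 20 and gained 32, and a fit of 2 groups lost 45 and gained 6. Leaving out 1 library lost 70 and gained 42, each in at least 1 fit. Same-numbered libraries of a mutant and wild type correlated between -0.206 and 0.148 around their genotype means, which gives no sign of pairing with wild type. A batch shared by number was not tested otherwise than by the replicate block. Library totals shift the median of all genes by -0.162 in bcl7ab, -0.1 in sys123 and 0.101 in swp73b, and move the share of rises among all calls from 53.6% to 25.3% in bcl7ab, 52.5% to 31.7% in sys123, 48.3% to 61.2% in swp73b, 47.3% to 36.8% in brip12 and 46.7% to 32.1% in an3. The cause of the changes below was not tested, except that a 2-fold minimum can only remove calls, by construction.

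With a 2-fold minimum, falls numbered 2 in brm, pms2ab and swp73b, 1 in brd1213, brip12, minu12, bcl7ab and an3, and 0 in syd, swi3d and sys123, and rises 0 in brm, syd, sys123, minu12, pms2ab and swp73b. With library totals, falls numbered 28 in bcl7ab, 19 in sys123 and 4 in an3, and rises 1 in syd and 2 in sys123. With 2 groups alone, falls numbered 11 in brd1213 and 6 in syd, and rises 0 in syd and 2 in sys123. With no filter, rises numbered 1 in syd and 2 in sys123. HIS1-3 in swi3d, not called in the limma fit over all libraries, was called at -0.85 with 2 groups alone, -0.84 with edgeR and -0.83 with DESeq2 (adjusted p from 0.00642 to 0.224 over its alternatives). In sys123 its rise of 0.95 was not called with a 2-fold minimum or with no filter.

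With 1 library left out, falls ranged from 8 to 11 in brm, 14 to 27 in brd1213, 9 to 17 in brip12, 6 to 10 in syd, 11 to 20 in swi3d, 5 to 13 in sys123, 11 to 14 in minu12, 13 to 15 in pms2ab, 20 to 21 in swp73b, 11 to 17 in bcl7ab and 2 to 4 in an3. Rises ranged from 10 to 13 in brm, 0 to 2 in syd, 0 to 5 in sys123, 4 to 6 in minu12, 3 to 6 in pms2ab and 3 to 4 in swp73b. The libraries that moved a count of falls by over 1.5 times were an3 library 2 (4), brip12 library 1 (9) and 3 (10) and wild-type library 3 (9 in brip12, 11 in swi3d, 5 in sys123), syd library 1 (6) and wild-type library 2 (7 in syd), and sys123 library 2 (5). For rises they were pms2ab library 1 and wild-type library 1 (3 in pms2ab), and in sys123 its libraries 1 (2) and 3 (1) and wild-type libraries 1 (2) and 3 (0). HIS1-3 ranged from -1.01 to -0.55 in syd, called without syd library 2, and from 0.73 to 1.15 in sys123.

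For the contrasts between mutants or classes, alternatives were chosen after seeing the data. With a 2-fold minimum, 0 members were higher in brm than in brd1213 and 1 lower, 0 lower in brd1213 than in brip12, 1 higher and 1 lower in minu12 than in pms2ab, 0 higher and 1 lower in BAS than in SAS, 0 and 0 in BAS against MAS, and 1 and 0 in SAS against MAS. With no filter, 0 members were lower in brd1213 than in brip12 and 1 in minu12 than in pms2ab, as with library totals for minu12 against pms2ab (1). With 1 library left out, members lower in brd1213 than in brip12 numbered 0 to 2, and in minu12 against pms2ab 1 to 2 were lower and 7 to 10 higher.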
